A study of Mus musculus with 16 samples.

Results

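Actin filaments shape every migrating or phagocytic cell, and 10 genes of this machinery were followed in macrophages and microglia sorted from mouse brain: Actb, Actg1, Tmsb4x, Tmsb10, Cfl1, Pfn1, Coro1a, Arpc1b, Lcp1 and Msn. They were chosen by name as abundant actin, thymosin and actin-binding genes, with earlier results of these data known. All 10 were found by symbol among the 18580 genes of the tables, and all 10 passed the filter on low counts in every comparison. Both populations came from the same brains, 2 months after α-synuclein (α-syn) had been delivered to both striata, either as monomer (MONO) or as pre-formed fibrils (PFF), the aggregated form that seeds pathology. The mice were males and females lacking the hemoglobin-haptoglobin receptor CD163 in all cells (CD163KO, allele CD163tm1.1(KOMP)Vlcg) or wild type littermates (WT, C57BL/6N), 12 weeks old at surgery. Each WT group had 7 injected mice and each CD163KO group 5, except MONO-CD163KO males with 4. Microglia were gated as CD11b+ CD45 low to intermediate and macrophages as CD11b+ CD45 high. The latter gate takes border-associated and infiltrated macrophages and, by the study's own description, also neutrophils and NK cells, and it yielded far fewer cells for RNA extraction than the microglial gate.

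Actin monomers (G-actin) assemble into filaments (F-actin), and the balance between both forms drives membrane ruffling, migration and phagocytosis. Cytoplasmic actin is made from Actb (β-actin) and Actg1 (γ-actin). Thymosin β4 (Tmsb4x) and thymosin β10 (Tmsb10) are small peptides that sequester monomers, profilin (Pfn1) loads monomers onto growing filament ends, and cofilin (Cfl1) severs old filaments and returns monomers to the pool. Of the remaining members, Arpc1b encodes a subunit of the branching Arp complex that is typical of hematopoietic cells, Coro1a encodes coronin 1A, a regulator of that complex in leukocytes, Lcp1 encodes L-plastin, which bundles filaments, and Msn encodes moesin, which ties filaments to the plasma membrane.

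Both thymosins encode peptides of the same length, and the reference coding sequences show how far the transcripts can be told apart by reads. The coding sequences below are those of GENCODE on GRCm38, from Tmsb4x at chrX:167207501-167208036 and Tmsb10 at chr6:72957618-72958012, both on the minus strand and joined over 2 coding exons, and capitals mark the bases at which they differ.
Tmsb4x: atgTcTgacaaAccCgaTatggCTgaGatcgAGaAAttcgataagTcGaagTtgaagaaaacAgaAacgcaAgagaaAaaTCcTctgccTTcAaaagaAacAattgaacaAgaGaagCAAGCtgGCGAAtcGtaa
Tmsb10: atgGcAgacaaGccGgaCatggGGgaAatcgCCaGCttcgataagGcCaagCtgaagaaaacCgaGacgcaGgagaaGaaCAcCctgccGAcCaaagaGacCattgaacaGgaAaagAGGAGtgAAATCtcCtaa
Over 135 bases they differed at 40, an identity of 70.4%, and the longest run of identical bases was 10. The cytoplasmic actins were closer to each other, with 128 different bases among 1128 (88.7% identical) and identical runs of up to 62 bases. The estimated counts of Actb were fractional in 16 of 16 libraries those of Actg1 were whole in 11, and those of the main transcripts of Coro1a, Lcp1 and Tmsb10, which are listed with further transcripts, were whole in 5, 5 and 1, whereas those of Tmsb4x, Cfl1, Pfn1, Arpc1b and Msn were whole in all 16 (within 0.005 of a whole number). The level of Actb, and that of Actg1 in the libraries with fractional values, therefore includes reads that RSEM divided between transcripts.

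RNA was amplified by SMART-seq2, a full-length protocol for small inputs, and 1 table was analysed for each combination of population, sex, genotype and treatment, 16 libraries in all. Estimated counts summed to between 12170686 and 21433841 per macrophage library and between 8648751 and 18768238 per microglia library. Homeostatic microglia markers (12 genes, among them P2ry12 and Tmem119) had median FPKM values of 951.7 to 1293.6 in microglia and 25.9 to 103.0 in macrophages, and border macrophage markers had medians of 101.3 to 412.2 in macrophages and at most 7.41 in microglia. Neutrophil markers (12 genes, all above 0 in every macrophage library) summed to between 22181.8 and 134672.4 FPKM in macrophages and to between 1056.8 and 2875.6 in microglia. Cd163 had at most 1 count in the CD163KO macrophages and at least 748 in the WT macrophages. In microglia the count did not separate the genotypes, with 5 to 23 in CD163KO, 46 and 101 in WT females and 1 and 0 in WT males.

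Libraries of PFF-WT males and MONO-CD163KO males stood apart. Their 10 most abundant genes took 16.52% and 16.54% of the counts in macrophages, against 39.64% to 64.01% in the other 6 macrophage libraries. In their microglia these genes took 58.66% and 47.66%, against 13.49% to 16.37% in the other 6. The study excluded MONO-CD163KO males, and they enter the descriptions below but not the tests. The library labelled MONO-CD163KO female microglia held 799 Y-linked counts (Uty, Kdm5d, Eif2s3y and Ddx3y summed), whereas the other libraries labelled female held at most 2. It also held 23 Cd163 counts, the most among CD163KO microglia, and it enters the microglia tests and the pairs below as labelled. The macrophage library it is paired with held 0 Y-linked counts. Whether any library was exchanged was not tested. The treatment, genotype and sex values below, and the pairing of macrophage with microglia libraries, rest on the labels as given.

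The 10 genes took between 4.01% and 18.0% of all counts in macrophages (median 6.92%, n = 8 libraries) and between 1.90% and 13.5% in microglia (median 2.92%, n = 8). The share was higher in macrophages in 6 of 8 pairs of libraries sorted from the same group of mice, and the exceptions were the PFF-WT males (4.91% in macrophages, 13.5% in microglia) and the MONO-CD163KO males (4.01% and 7.59%). Without these groups the ranges were 5.70% to 18.0% and 1.90% to 4.95%, which did not overlap. Since the groups left out are the exceptions themselves, this separation is a description and no further support. The 95% Wilson interval of each share was at most 0.021 percentage points to either side, and it covers counting error only, since PCR copies are counted as reads.

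In percentage points Actb varied most. It took 1.84% to 13.3% of the counts of a macrophage library and 0.729% to 11.7% of a microglia library, and it made up 38.3% to 86.5% of the counts of the 10 genes. Tmsb4x added 0.960% to 3.69% in macrophages and 0.566% to 1.64% in microglia. The other 8 genes together took 0.823% to 1.21% in macrophages and 0.335% to 0.526% in microglia. Their sum was steadier than single genes, since the FPKM of Coro1a and Msn ranged 8.09-fold and 7.74-fold over the macrophage libraries, against 7.25-fold for Actb. The libraries with large shares were thus set apart by Actb, with Tmsb4x also highest in the MONO-CD163KO female macrophages, where the 10 genes reached 18.0%.

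**Figure D1:**
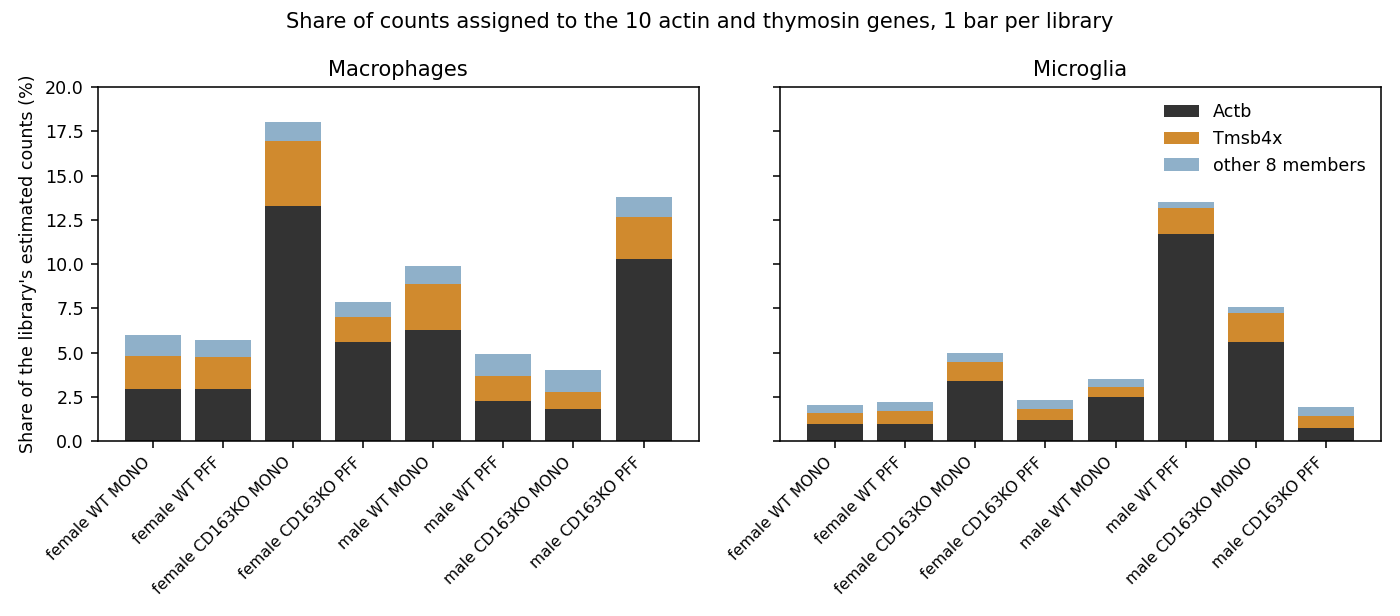
Share of each library's estimated counts (percent) taken by Actb, by Tmsb4x and by the other 8 genes, as stacked bars, 1 bar per library, macrophages on the left and microglia on the right. Actb makes up most of the differences in height, and among microglia the bar of PFF-WT males (13.5%) stands far above the 6 libraries that lie between 1.90% and 4.95%.

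Levels per transcript length (FPKM, fragments per kilobase of transcript, scaled to a common number of mapped fragments) placed Tmsb4x and Actb near the top of both transcriptomes. By median FPKM, Tmsb4x ranked number 6 of all genes in macrophages and 3 in microglia, and Actb 8 and 4. Pfn1 (17 and 39), Tmsb10 (42 and 421), Cfl1 (45 and 59) and Arpc1b (67 and 114) followed, and Msn was lowest (719 and 792). Actb exceeded Actg1, its near-identical partner, in every library.

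Actb reached 9739 to 70576.5 FPKM in macrophages with a median of 22870 (n = 8). In microglia it reached 3868 to 61908 FPKM with a median of 9717 (n = 8). The ranges overlapped broadly, and the highest microglial value, from PFF-WT males, lay above 7 of the 8 macrophage libraries. Tmsb4x reached 15566 to 60547 FPKM in macrophages (median 29618) and 9296 to 26089 in microglia (median 11110), again with overlap that came from the PFF-WT and MONO-CD163KO males and the MONO-CD163KO females.

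Tmsb10, Pfn1, Cfl1 and Arpc1b were lower in all 8 microglia libraries than in any macrophage library, a pattern found in 2.35% of the 12304 genes tested. None of the 10 was higher in all 8 microglia libraries, against 4.74% of those genes. Tmsb10 ran from 770.3 to 2399 FPKM in macrophages (median 1528) and from 76.03 to 314.5 in microglia (median 160.5). For Pfn1 the ranges were 3173 to 7845 FPKM (median 5810) and 973.4 to 2159 (median 1216). Cfl1 and Arpc1b were separated by narrow gaps, since the lowest macrophage values were 900.7 FPKM for Cfl1 and 615.1 for Arpc1b, and the highest microglial ones 880.2 and 499.9. In contrast, Actg1, Coro1a, Lcp1 and Msn overlapped between populations. Medians in macrophages and microglia were 331.9 and 350.9 FPKM for Actg1, 175.9 and 268.7 for Coro1a, 179.7 and 171.4 for Lcp1 and 65.2 and 92.72 for Msn.

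**Figure D2:**
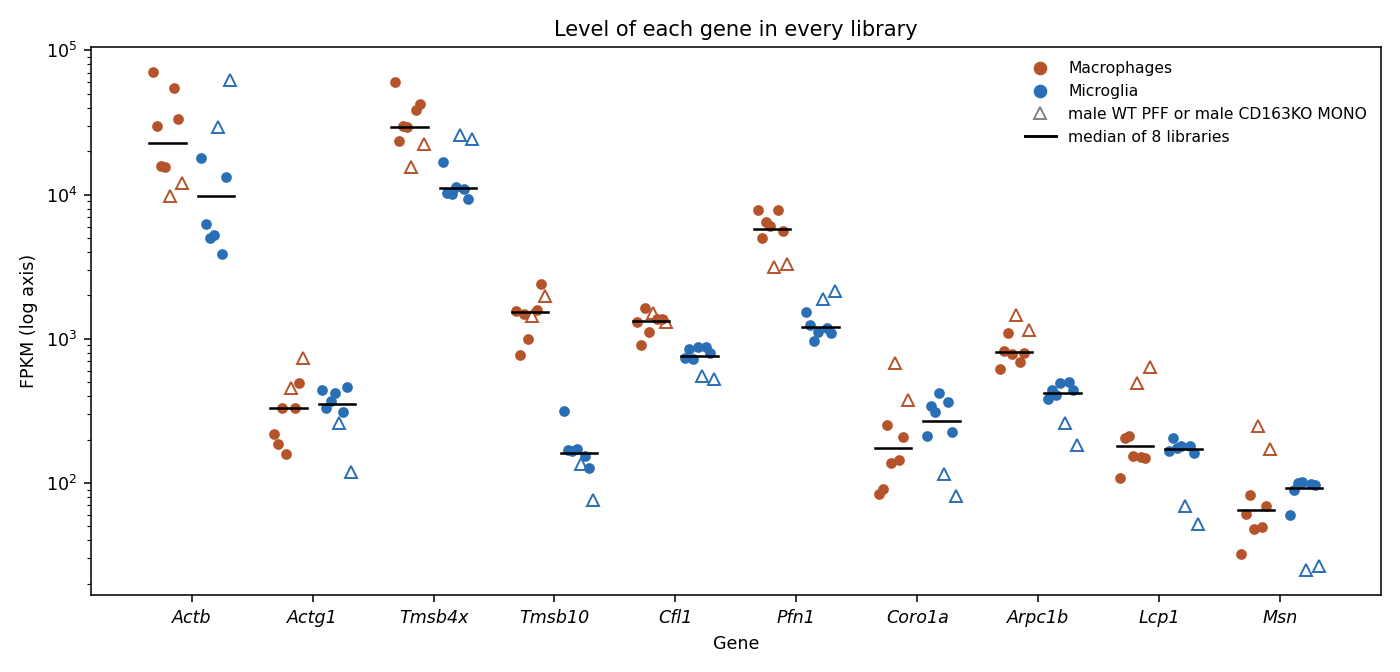
FPKM of each gene (log axis) in the 8 macrophage and 8 microglia libraries, with open triangles for PFF-WT males and MONO-CD163KO males and black lines at the medians. Tmsb10, Pfn1, Cfl1 and Arpc1b do not overlap between populations, and the triangles lie at the edges of most groups, often on the side of the other population.

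Microglia were then tested against macrophages within each combination of sex, genotype and treatment (7 pairs, edgeR quasi-likelihood test with TMM scaling, Benjamini-Hochberg adjustment over all genes, threshold 0.05). Of the 10 genes, 9 were lower in microglia and none was higher, while 13.4% of the 12304 genes tested were called lower, 7.87% higher and 21.3% in either direction. The median log2 fold change of the 10 genes was -2.34, against 0.31 over all genes. Fewer cells of a type in the gate and less RNA per cell cannot be told apart in such bulk samples. Scaling by library totals in place of TMM moved the median of all genes from 0.31 to 1.95 and the share of higher genes among those called from 37.0% to 90.6%, and left 4 of the 10 genes called, all lower, beside 589 of the 12304 genes called lower.

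Among the genes called, the thymosins and profilin differed most. Tmsb10 was 24.5-fold lower in microglia (log2 fold change -4.62, SE 0.37, edgeR adjusted p = 9.21e-06), and Pfn1 was 14.5-fold lower (-3.86, SE 0.74, adjusted p = 0.00329). Tmsb4x was 8.53-fold lower (-3.09, SE 0.79, adjusted p = 0.0169). Tmsb10, Pfn1, Tmsb4x and Arpc1b (5.66-fold lower, -2.50, SE 0.32, adjusted p = 0.000249) were also called with library totals, at log2 fold changes of -3.20, -2.20, -1.43 and -1.08. Tmsb4x missed the threshold when MONO-CD163KO males were added (-2.63, adjusted p = 0.063), and when any of 6 pairs was left out its adjusted p reached up to 0.0625.

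Actb had a difference larger than that of Tmsb4x but was not called (log2 fold change -3.43, SE 1.17, 95% interval -6.00 to -0.86, edgeR adjusted p = 0.059). Its difference of log2 FPKM between paired libraries was -3.82 to -1.34 in the 6 groups of mice other than PFF-WT and MONO-CD163KO males, and the highest value was 2.37, in PFF-WT males. Without the PFF-WT male pair all 10 genes were called, Actb at -3.97 (adjusted p = 1.71e-05) and Tmsb4x at -3.56, and the number of all genes called was 4926 in place of 2616. Actb was also called by DESeq2 (-3.36, adjusted p = 1.5e-05), by limma on log2(FPKM + 1) (-1.46, adjusted p = 0.0354) and without the filter on low counts (-3.04, adjusted p = 0.0452), but not with library totals (-1.62, adjusted p = 0.0974).

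Cfl1 was 4.55-fold lower in microglia (log2 fold change -2.19, SE 0.43, edgeR adjusted p = 0.00371) and Lcp1 3.42-fold lower (-1.78, SE 0.23, adjusted p = 0.000267). With library totals neither was called, at -0.74 (adjusted p = 0.0506) and -0.25 (0.613). Actg1, Msn and Coro1a were called lower with TMM (-1.30, -1.16 and -0.76, adjusted p = 0.00226, 0.00075 and 0.029) and turned to higher but not called with library totals (0.16, 0.33 and 0.72). The call of Coro1a was also lost, with the same sign, when any of 5 of the 7 pairs was left out (-0.76 to -0.68, adjusted p up to 0.0967), with RLE (-0.68, 0.0535) or upper-quartile factors (-0.60, 0.116), and without the filter on low counts (-0.42, 0.228). In FPKM, Coro1a and Msn were higher in microglia in 6 of 8 pairs, and Actg1 and Lcp1 in 4 of 8. Between TMM and library totals the direction thus rested on the scaling for Actg1, Msn and Coro1a, whereas Tmsb10, Pfn1, Cfl1 and Arpc1b were lower in microglia in 8 of 8 pairs.

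**Figure D3:**
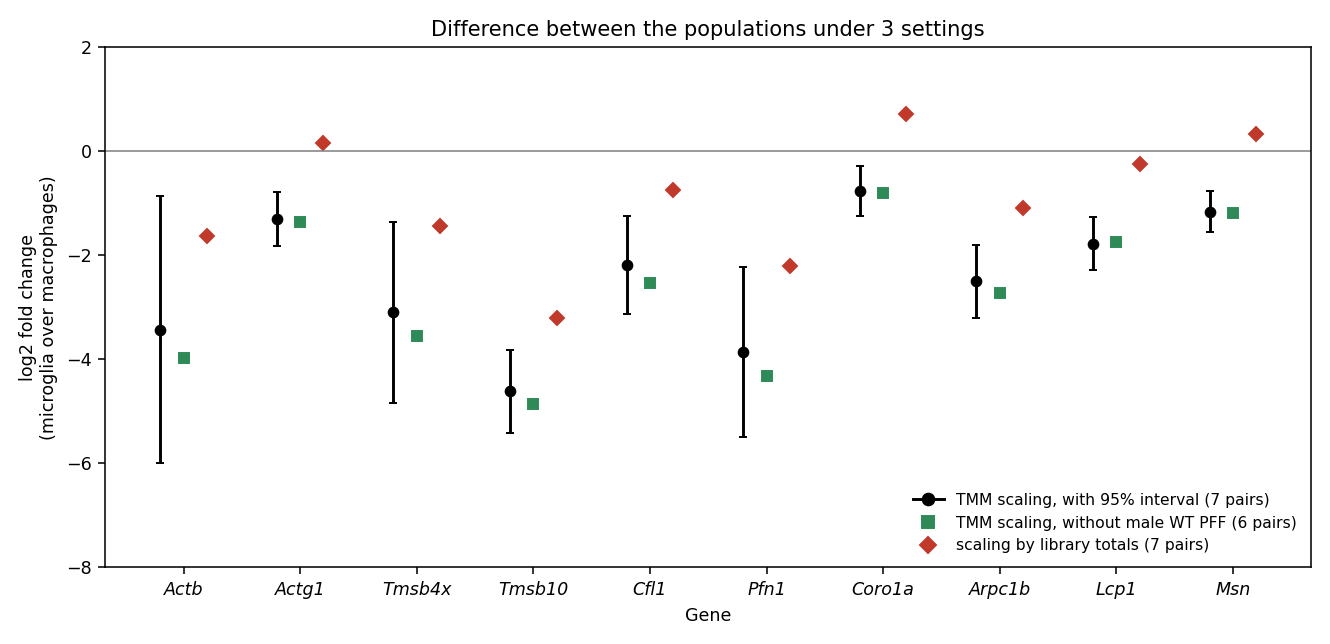
Log2 fold change of microglia over macrophages for each gene with TMM scaling (circles with 95% intervals, 7 pairs), with TMM scaling without PFF-WT males (squares, 6 pairs) and with scaling by library totals (diamonds, 7 pairs). Tmsb10 lies lowest under the 3 settings (-4.62, -4.86 and -3.20), and the diamonds of Actg1, Coro1a and Msn lie above 0.

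Markers of the other cells in the CD45 high gate moved with this comparison. Of the 12 neutrophil markers 11 were lower in microglia and 1 was higher, and all 7 monocyte markers called of 8 were lower, as were the 5 NK and T cell markers called of 9 tested. These cells also express the 10 genes, and the part of these markers in the result was not tested.

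Ratios between 2 genes of the same library do not depend on how libraries are scaled. The ratio of Tmsb4x to Tmsb10 (FPKM over FPKM) was 10.8 to 38.7 in macrophages (median 22.2) and 53.3 to 319.6 in microglia (median 68.4). It was higher in microglia in 8 of 8 pairs, and the ranges did not overlap. Macrophages thus held relatively more thymosin β10 message for each thymosin β4 message than microglia in each group of mice. The highest microglial ratios, 319.6 and 191.0, came from PFF-WT males and MONO-CD163KO males, and the other 6 lay between 53.3 and 72.9.

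The ratio of Actb to Actg1 behaved differently. It was 16.2 to 322.1 in macrophages (median 82.8) and 12.4 to 516.1 in microglia (median 23.7), and it was higher in macrophages in 6 of 8 pairs. In PFF-WT males it was 16.2 in macrophages and 516.1 in microglia, and in MONO-CD163KO males 21.4 and 112.9. Pfn1 to Cfl1 gave 2.09 to 5.95 in macrophages and 1.26 to 4.09 in microglia, with the same pairs as exceptions.

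**Figure D4:**
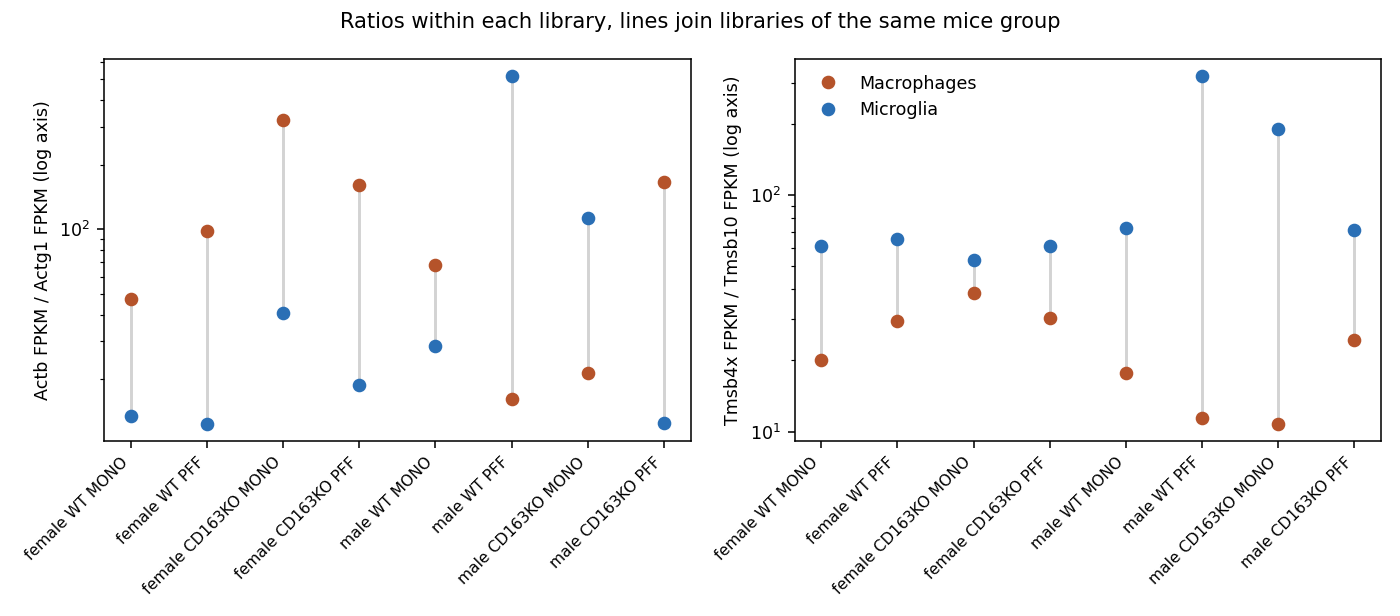
Ratio of Actb to Actg1 (left) and of Tmsb4x to Tmsb10 (right), FPKM over FPKM on log axes, for macrophages and microglia of each group of mice, with a grey line joining both libraries of a group. The thymosin ratio is higher in microglia in 8 of 8 groups, and the actin ratio is higher in macrophages in 6 of 8.

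The response to fibrils was addressed by comparing PFF with MONO within each population, with sex and genotype as covariates (7 libraries, edgeR quasi-likelihood test). In macrophages none of the 10 genes was called, nor was any gene (0.0% of 10430), and 1 of the 10 and 126 of all genes had an unadjusted p below 0.05. DESeq2 and limma on log2(FPKM + 1) called 0 of the 10 as well, and 4 and 1 of all genes. Actb in macrophages was at 15751, 33334, 70576.5 and 9739 FPKM in MONO (WT females, WT males, CD163KO females and CD163KO males) and at 15480, 11952, 29990 and 54724 in PFF in the same order. All 4 PFF values lay within the range of the MONO values, and the log2 fold change was -0.35 (95% interval -2.59 to 1.89).

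Lcp1 had the smallest p of the 10 in macrophages (log2 fold change 0.92, SE 0.38, edgeR unadjusted p = 0.0457, adjusted p = 1.0). Its FPKM was 212.8, 148.5, 109.3 and 496.2 in MONO and 154.4, 634.2, 205.1 and 152.5 in PFF, in the order above. PFF was higher than MONO in WT males and CD163KO females and lower in WT females and CD163KO males. The other 8 genes had log2 fold changes of -0.23 to 0.60.

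In microglia, PFF against MONO called none of the 10 genes with edgeR (0.0% of 11373 genes called, 722 at an unadjusted p below 0.05), and DESeq2 and limma called 0 of the 10, with 30 and 0 of all genes. With TMM, 9 of the 10 log2 fold changes were positive, with a median of 0.43 against 0.11 over all genes. With library totals the median of all genes was -0.39. Actg1 (-0.56), Tmsb10 (-0.46), Lcp1 (-0.24), Actb (-0.20), Msn (-0.14) and Arpc1b (-0.07) were then negative and the other members positive. Coro1a had the smallest p (0.72, SE 0.32, edgeR unadjusted p = 0.0481, adjusted p = 0.754). Its FPKM was 310.1, 227.3, 211.1 and 116.5 in MONO and 418.4, 81.88, 343.2 and 367.8 in PFF, in the order WT females, WT males, CD163KO females and CD163KO males. PFF was the higher one in 3 of these 4 groups, and in WT males it was the lower one. Actb was at 4998, 13189, 18007 and 29331 FPKM in MONO and 5268, 61908, 6244 and 3868 in PFF, so that PFF was the far higher one in WT males and the lower one in both CD163KO groups. Its log2 fold change had an interval of -4.77 to 5.36.

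CD163KO was compared with WT in the same way, to see how the absence of the receptor affects both populations. In macrophages edgeR called none of the 10 genes (0.00959% of 10430 genes, that is 1 gene, Cd163 itself, and 76 at an unadjusted p below 0.05, none of them among the 10). Actb came closest. It was at 70576.5, 29990, 54724 and 9739 FPKM in CD163KO (MONO and PFF females, PFF and MONO males) and at 15751, 15480, 33334 and 11952 in WT (MONO and PFF females, MONO and PFF males). Apart from the excluded MONO-CD163KO males, CD163KO libraries were higher than WT ones with 1 exception, MONO-WT males above PFF-CD163KO females.

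The log2 fold change of Actb by genotype in macrophages was 1.97 (SE 0.95, 95% interval -0.29 to 4.23, edgeR unadjusted p = 0.0787, adjusted p = 1.0). The call differed between the fits. With library totals edgeR gave 1.64 (adjusted p = 0.00576), and limma on log2(FPKM + 1) gave 1.69 (adjusted p = 8.61e-08), whereas DESeq2 gave 1.95 (adjusted p = 0.604). Of all genes, 2 were called with library totals, 1 higher and 1 lower. Limma called 1, Actb itself, so limma did not call Cd163. The other 9 genes had log2 fold changes of -0.59 (Coro1a) to 0.84 (Tmsb4x), beside 0.15 for the median of all genes. Neutrophil markers had a median log2 fold change of 0.49 in the same comparison with none of 12 called, and their part in the result was not tested.

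In microglia no gene was called by genotype with edgeR (0.0% of 11373, 125 at an unadjusted p below 0.05, none of them among the 10), and DESeq2 and limma called 0 of the 10, with 2 and 0 of all genes. The 10 log2 fold changes lay between -0.52 (Tmsb4x) and 0.12 (Tmsb10). Precision differed between members, as the 95% interval of Actb was -5.66 to 5.35 and that of Msn -1.05 to 0.25. In simulated data of the same design (10812 genes), 45% of genes changed 4-fold were recovered in microglia and, over 9535 genes, 0% in macrophages, so changes of that size could be missed here. In the simulation 11 unchanged genes were called in microglia and 0 in macrophages.

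**Figure D5:**
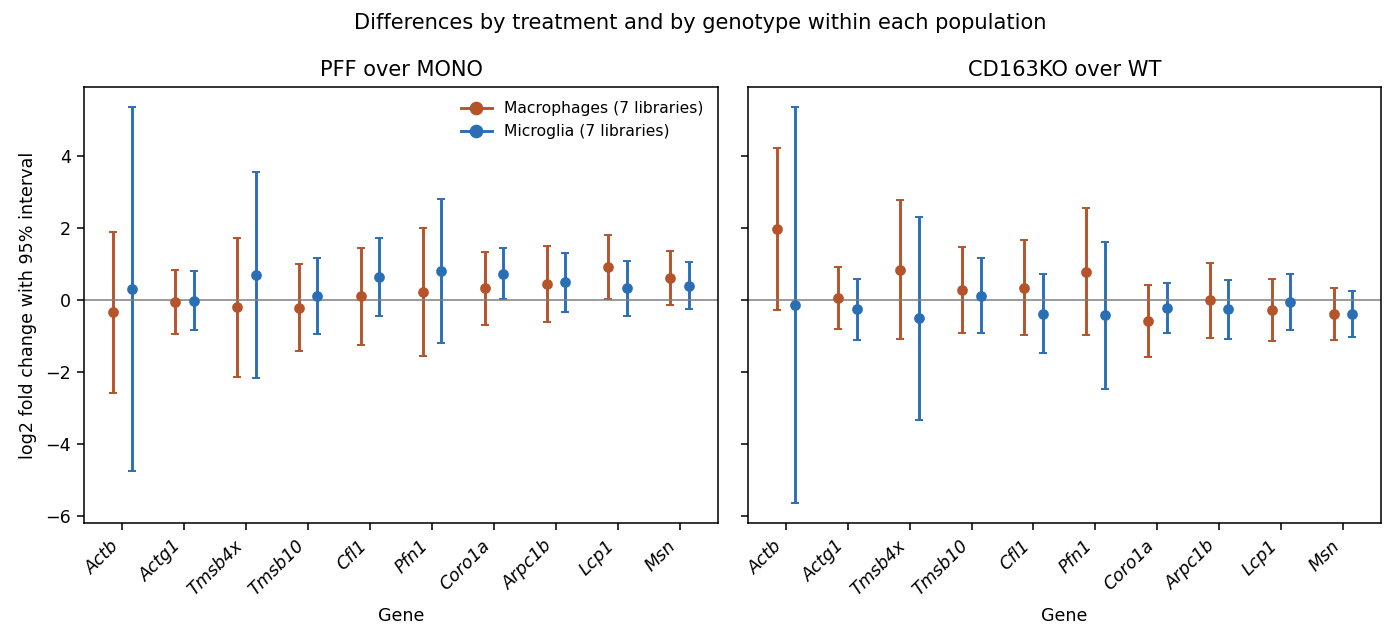
Log2 fold change with 95% interval for each gene by treatment (PFF over MONO, left) and by genotype (CD163KO over WT, right), in macrophages and microglia (7 libraries each). Actb in microglia has the widest intervals, and Actb by genotype in macrophages (1.97) is the value farthest from 0.

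Whether the response to fibrils differed by genotype was tested as an interaction. In microglia no gene was called with edgeR (0.0% of 11373, 434 at an unadjusted p below 0.05, 1 with limma and 29 with DESeq2), and of the 10 genes Tmsb10 alone was below that limit. Its log2 difference was -1.92 (SE 0.66, edgeR unadjusted p = 0.0186, adjusted p = 0.942). Tmsb10 in microglia was at 167.1 and 127.5 FPKM in MONO-WT, 171.7 and 76.03 in PFF-WT, 314.5 and 136.6 in MONO-CD163KO and 169.2 and 153.9 in PFF-CD163KO, females first. The high value of MONO-CD163KO females, the library with Y-linked counts, is the single MONO-CD163KO library of this test, so the interaction could not be fitted without it. Actb had a log2 difference of -5.67 (SE 3.58, adjusted p = 0.942) and was called with library totals (-3.75, adjusted p = 0.00109), with limma on log2(FPKM + 1) (-3.74, adjusted p = 0.00439) and without PFF-WT females (-6.92, adjusted p = 0.00303). Without PFF-WT males it was -1.48 and not called.

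In macrophages the interaction called none of the 10 genes (0.0% of 10430, 45 of all genes but none of the 10 at an unadjusted p below 0.05). DESeq2 and limma called 0 of the 10, and 8 and 2 of all genes. Differences between the populations in the response to PFF or to genotype were not called either (0.0% of 12304 genes in both tests with edgeR, 132 and 95 genes at an unadjusted p below 0.05, none among the 10, and 0 of the 10 with DESeq2 and limma, which called 32 and 0 genes by treatment and 25 and 0 by genotype). Between males and females none of the 10 genes was called (edgeR, 0.0% of 10430 genes called in macrophages and 0.0% of 11373 in microglia, 143 and 190 at an unadjusted p below 0.05, none among the 10). DESeq2 called 16 and 15 genes by sex and limma 5 and 3, with 0 of the 10 among them. For Actb in microglia the male over female log2 fold change was 3.31 with an interval of -3.59 to 10.21. Without the library that held Y-linked counts none of the 10 was called by sex, treatment or genotype in microglia either, but values of Actb moved to 1.90, 3.38 and -3.54 from 3.31, 0.29 and -0.15. In simulated data 0% of 4-fold changes were recovered in either of these tests between populations and in the treatment, sex and interaction tests in macrophages (9522 to 11737 genes), and 6% in the interaction in microglia (10906 genes). In that microglia interaction 15 unchanged genes were called. None of the 10 separated all 4 libraries of a treatment or genotype from all 4 of the other. Among all genes tested, 0.0479% had PFF above MONO in this way in macrophages and 4.1% PFF below MONO, and in microglia 0.229% and 0.58%. For CD163KO above or below WT the shares were 0.163% and 0.451% in macrophages and 0.396% and 0.044% in microglia.

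Other genes of the actin machinery gave a background to the 10 (81 genes in 10 lists, of which 78 were tested between populations). With TMM, 26 were called lower in microglia and 8 higher, at a median log2 fold change of -0.43, beside 13.4% lower and 7.87% higher over all genes. With library totals the balance turned to 9 lower and 27 higher, at a median of 1.09 against 1.95 over all genes. In the branching Arp complex 5 of 8 subunits were lower and none higher with TMM (1 lower and 1 higher with library totals), led by Arpc5 (-2.45), Arpc3 (-2.25) and Actr3 (-2.16), and Arpc2, the most abundant subunit of the list, was at -2.03 (adjusted p = 9.91e-05). With library totals Arpc5 was still called (-1.05, adjusted p = 0.0369), whereas Arpc3 (-0.82, 0.201), Actr3 (-0.59, 0.347) and Arpc2 (-0.57, 0.231) were not. Among filament capping and severing genes 5 of 8 were lower with TMM (3 lower and 2 higher with library totals), with Eps8 (-4.33), Gsn (gelsolin, -4.24) and Capg (-3.28) changing most. Filament turnover genes had 3 lower and 1 higher of 15 with TMM, close to the shares over all genes, and 1 lower and 7 higher with library totals. The largest differences among those called were those of Gmfg (glia maturation factor γ, -3.34) and Twf1 (twinfilin, -1.44, and -0.02 with library totals), while Dstn (destrin, a cofilin relative) was at -1.20 with TMM and turned to 0.22 with library totals. Among myosin and tropomyosin genes 6 of 11 were lower and none higher with TMM (1 lower and 1 higher with library totals), with Tpm4 at -2.79, Myl6 at -2.48 and Myl12a at -2.18. Of these Myl6 was also called with library totals (-1.06, adjusted p = 0.0311), while Tpm4 (-1.06, 0.154) and Myl12a (-0.76, 0.147) were not. Eps8, Gsn, Capg and Gmfg were called with library totals as well, at -2.85, -2.69, -1.87 and -1.89. None of these genes was called by treatment, genotype or sex in either population.

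After subtracting population means, the genes whose log2(FPKM + 1) most resembled Actb over the 16 libraries were Lrrc58 (Pearson r = 0.986), Neu3 (0.923) and Exosc2 (0.914), of 4514 genes with a mean FPKM of at least 10, the 10 members left aside. For Tmsb4x they were Neu3 (0.863), Tyr (0.845) and Mfsd4a (0.831). These are descriptions, since all values of a library share its total and the PFF-WT and MONO-CD163KO males lie at the ends of the range. Among the 10 genes, Actb ran with Tmsb4x (r = 0.84) and Pfn1 (0.82) and opposite to Arpc1b (-0.91), Coro1a (-0.85), Msn (-0.84) and Lcp1 (-0.81). Where Actb took a large share of a library, these 4 genes were therefore at low FPKM, as in the MONO-CD163KO female macrophages, which had the lowest Coro1a (83.96), Lcp1 (109.3), Arpc1b (615.1) and Msn (32.0) of all macrophage libraries.

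Promoters from RefSeq on GRCm38.p6, 250 bases before to 50 after each start, were listed for 9 of the 10 genes (Actb had no entry). Only the 250 bases before the start were searched. The CArG box, the sequence bound by serum response factor, a regulator of many actin genes, was found on either strand in Actg1 alone among the 9. It was found in 1.47% of 32851 promoters and 1.62% of 27025 genes. The stretch below is chr11:120348531-120348630 on the minus strand, with the CArG box in capitals, 90 to 81 bases before the start of Actg1.
Actg1 promoter: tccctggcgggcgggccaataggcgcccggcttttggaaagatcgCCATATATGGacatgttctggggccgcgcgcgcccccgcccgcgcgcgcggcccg
A GC box (GGGCGG, or CCGCCC on the other strand) was found in 8 of the 9, all but Cfl1, and in 32.7% of all promoters (35.4% of genes). A PU.1 core motif (GAGGAA, or TTCCTC on the other strand) was found in Msn alone among the 9, and in 23.3% of all promoters (25.9% of genes). These matches describe letters in the window and not binding.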

How the data were processed

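Per the labels and the methods, the authors sorted cells, amplified RNA by SMART-seq2, mapped cleaned reads with Bowtie2 to mm10 and estimated expression with RSEM. The deposited tables give, for each RefSeq transcript, the length, the expected count (the estimated count of RSEM) and the FPKM, and the authors used DESeq2 for their own tests. Triplicates were sequenced, but whether a table pools them is not stated, so spread comes from libraries of other sex, genotype or treatment, and p-values measure only the spread between these libraries, which may be technical. Mice were injected in batches that the labels do not assign to libraries, so batch and group cannot be told apart.

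Transcripts were matched to symbols with the RefSeq table of GRCm38.p6 (27632 of 27787, 99.44%, with at most 0.1279% of counts unmatched), and counts and FPKM were summed per gene, unlisted genes being 0. Summed counts were rounded and tested with edgeR 4.0.16 (R 4.3.3, TMM, robust quasi-likelihood fit) over genes with at least 1 CPM in at least 3 libraries. Population was fitted with the group of mice as a pair term, and treatment, genotype and sex within each population. MONO-CD163KO males were left out, as in the study. The study also corrected a batch effect and removed outlier samples, and neither step was repeated here. Alternatives were RLE and upper-quartile factors, library totals, no filter, DESeq2 1.42.0, limma 3.58.1 on log2(FPKM + 1) and log2(FPKM + 0.1), inclusion of MONO-CD163KO males, no pair term and leaving out each library or pair. Named were the 10 genes, up to 3 genes of each other actin list with the largest change among those called, the most abundant gene of each list, the label checks Cd163, Ddx3y, Eif2s3y, Kdm5d and Uty, and the 3 genes most like Actb and Tmsb4x. The result of 1 of the actin lists is not reported here. The members and lists were chosen with earlier results of these data known. Scripts were tested on simulated counts with 200 changed genes, in which 34% of 4-fold changes were recovered between populations (11646 genes).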

Additional observations from a re-analysis of the deposited data

How the results depend on the processing

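Between populations, library totals left 4 genes called of the 10, and leaving out 1 pair gave 7 to 10 (1893 to 4926 of all genes). Without the pair term 9 were called (2967 of all genes), at -2.32 (adjusted p = 0.249) for Actb. Signs turned with library totals for Actg1 (0.16), Coro1a (0.72), Msn (0.33), Brk1 (0.91), Capza2 (1.21), Diaph1 (0.24) and Dstn (0.22), and with limma on log2(FPKM + 1) and log2(FPKM + 0.1) for Actg1 (0.09 in both), Coro1a (0.63 in both), Msn (0.23 in both), Brk1 (0.87 and 0.88), Capza2 (1.19 and 1.20) and Dstn (0.20 in both). The cause was not tested. The number of all genes called was 2616, against 6235 with library totals, 4730 with DESeq2 and 6320 and 6465 with limma. By genotype in macrophages 1 of the 10, Actb, was called with library totals and both limma fits (2, 1 and 3 of all genes). In the interaction of genotype and treatment in microglia 1 was called with library totals and both limma fits, and leaving out 1 library gave 0 to 3, the 3 being Actb, Pfn1 and Tmsb4x without PFF-WT females, when 132 of all genes were called in place of 0. In macrophages the same omission gave 3597 genes of all in place of 0, with 0 of the 10 among them. These omissions leave 1 library in an arm, which is assumed to vary like the others, and the interactions could not be fitted without MONO-CD163KO females. The median share of counts taken by the 10 genes in macrophages was 14.8% when the 10 most abundant other genes were left out of the total. The remaining counts of the 10 genes kept within 1.5 times of the main count. Intervals from counts cover counting error only, and what depth or library complexity adds to the spread was not tested.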

Other observations

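Other actin lists were mixed between populations. Of 10 nucleation factors 3 were called higher in microglia than in macrophages and 1 lower (edgeR with TMM), beside 7.87% higher and 13.4% lower over all genes, and 6 and 0 with library totals. Nckap1l and Cyfip1, partners in the WAVE complex that activates branching, were higher (log2 fold change 1.41 and 1.37, edgeR adjusted p = 0.000249 and 0.0004, and 2.91 and 2.84 with library totals), and the formin Diaph1 was lower (-1.47, adjusted p = 0.0494) but turned to 0.24 with library totals. The edgeR call of Diaph1 was also lost with RLE (-1.39, adjusted p = 0.0584) or upper-quartile factors (-1.33, 0.0598) and without the filter (-1.11, 0.227). It was lost when any pair but PFF-WT males was left out (adjusted p up to 0.116), whereas DESeq2 called it (-1.39, adjusted p = 0.0016). Brk1, the most abundant of the list, was at -0.52 (adjusted p = 0.148) and turned to 0.91 with library totals, not called. Fscn1 (fascin, a bundling protein) was 8.85-fold higher in microglia (log2 fold change 3.15, and 4.59 with library totals), at 15.8 to 159 FPKM against 1.44 to 6.35 in macrophages, whereas Flna (filamin A) was 4.85-fold lower (log2 fold change -2.28) with TMM and not called with library totals (-0.69, adjusted p = 0.311).

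None of 6 membrane linkers was called by edgeR with TMM, and 2 had an unadjusted p below 0.05. The most abundant, Fermt3 (kindlin-3), was at 0.55 (adjusted p = 0.0868), and was called higher by DESeq2 (0.63, adjusted p = 0.0265), with library totals (2.13, 0.00202) and by limma on log2(FPKM + 1) (1.91, 0.0123). The capping subunit Capza2 was at -0.21 (adjusted p = 0.639) and turned to 1.21 and called with library totals. Of the contractile actins 1 of 4 passed the filter, Acta2, with a median of 6.55 FPKM in macrophages and 0.44 in microglia (-4.08, edgeR adjusted p = 0.146, DESeq2 adjusted p = 0.00174). Neither Srf nor Mrtfa nor Mrtfb was called by edgeR with TMM, and none had an unadjusted p below 0.05. Mrtfa, the most abundant of them, was at 0.02, and at 1.67 with library totals (adjusted p = 0.0883, not called).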
